A study of Mus musculus with 13 samples.

Results

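Immediate early genes are the first genes a cell transcribes after a growth factor, a cytokine, depolarisation or stress, without needing new protein. Most encode transcription factors that act on a later set of genes, and their transcripts are short-lived, so their level follows recent signalling. MAP kinases acting on serum response factor (SRF), and cyclic AMP or calcium acting on CREB, are the classic inputs, and in astrocytes the genes are known to respond to serum, injury and neurotransmitters. The 10 genes described here are the EGR zinc finger genes Egr1, Egr2 and Egr3, the AP-1 genes Fos and Fosb, the NR4A orphan nuclear receptor genes Nr4a1, Nr4a2 and Nr4a3, and Ier2 and Arc. Arc encodes a cytoskeleton-associated synaptic protein and not a transcription factor. The members were chosen by gene name, with their fold changes in these data already known, so their presence in a table and their direction are given as a description, with no test of their own. Of the 10 genes, 8 were in at least 1 of the 3 tables analysed, 5 were in all 3, and Fos and Ier2 were in none. The tables together name 1592 distinct genes.

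RNA was sequenced from primary astrocyte cultures treated for 24 h with HLM006474 (3 samples), Ro5-3335 (3 samples), SB431542 (3 samples) or vehicle (4 samples). HLM006474 inhibits transcription factors of the E2F family, Ro5-3335 acts on RUNX1 and its partner CBFB, and SB431542 blocks the type I receptor kinases for TGF-beta and activin. All 4 groups shared 1 source, C57BL/6 pups of wild type genotype aged postnatal day 1 to 3, with retinas and optic nerves as the tissue, and the same serum-containing medium. Doses are not given in the labels. Each of the authors' deposited tables compares 1 compound with vehicle and lists the genes that passed 2 limits, 0.05 on the adjusted p and about 1.5 on the fold change, so a gene outside a table is not shown to be unchanged. Values of single samples were not analysed here, so errors are the authors' standard errors (± in the text), and the depth of the libraries is unknown.

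Cell type markers among the genes listed were mixed. The astrocyte genes Fabp7 and Kcnj10 had mean normalised counts of 18965 and 23892.5 in the authors' deposited tables, and no other gene of the 10-gene astrocyte list was in a table, so Gfap and Aqp4 could not be checked. Fabp7 was lower under HLM006474 (log2 fold change -0.64) and Ro5-3335 (-0.67) in the authors' deposited tables. Kcnj10 was lower under SB431542 (-0.77) in the authors' deposited table. Microglial and macrophage transcripts were also present, with a mean count of 24249 for Lyz2 in the authors' deposited tables. Of 10 microglia and macrophage markers, 4 were listed under HLM006474 (1 higher, 3 lower), none under Ro5-3335 and 7 under SB431542 (3 higher, 4 lower). Under SB431542 they ran from -4.00 for Tmem119 to 2.64 for Mrc1 on the log2 scale in the authors' deposited table. For scale, 1.42% of genes tested were listed as higher and 4.22% as lower under HLM006474. These shares were 0.605% and 2.32% under Ro5-3335, and 2.29% and 2.64% under SB431542. Of 8 oligodendrocyte lineage markers, 6 were lower under HLM006474, none was listed under Ro5-3335, and Cspg4 alone was lower under SB431542. Of 6 mural cell and fibroblast markers, Des was higher and Rgs5 lower under HLM006474, and Col1a1 was lower under SB431542. Of 5 neuronal markers, Syt1 was lower under HLM006474 and Tubb3 under Ro5-3335, and none of 4 endothelial markers was in a table. Summed marker levels per group cannot be had from these tables, and the part of cell composition in the values below was not tested. In bulk RNA, more cells of a type cannot be told apart from more RNA per cell, and the cell type that carried a change is unknown.

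The members lie on 9 chromosomes, and most are short genes. In the GENCODE vM21 annotation of GRCm38, the build named in the submitters' processing notes, the 10 principal transcripts span a median of 5199.5 bases with 1 to 8 exons, against a median of 22744 bases for the 1549 protein-coding genes of the tables and 15683 bases for all 21875. Fosb lies at chr7:19302696-19310051 on the minus strand, Egr2 at chr10:67535475-67542188 on the plus strand and Nr4a1 at chr15:101254269-101274795 on the plus strand. Nr4a3 is the longest, at 41295 bases and above the median of the tables' genes, and the single-exon gene Ier2 the shortest, at 1522 bases. No other gene of that annotation overlaps any member on either strand.

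RefSeq (GRCm38.p6) windows of 250 bases before to 50 after the start site were at hand for 6 members. Each was searched on both strands for the CREB site TGACGTCA, its core TGACG, the EGR site GCGNGGGCG and the CArG box, the SRF site. All 6 members held at least 1 core (Egr2 in 3 of its 5 windows), from 1 in Fosb to 4 in Nr4a1, Nr4a2 and Nr4a3, where 20.8% of 32851 such windows in the genome hold one. None held the full 8-base site, found in 1.79% of windows. The EGR site was in the windows of Fosb, Nr4a1 and Nr4a2, against 5.55% of all windows. Of the 6 members Egr2 alone held a CArG box, in 4 of its 5 windows, where 1.63% of all windows hold one. The 3 Egr2 windows with a core overlap and hold the same cores and the same CArG box, so they are not separate cases. Shown are 3 genes listed under every compound and Fos, the closest relative of Fosb, which no table lists. Capitals mark CREB cores and CArG boxes, and each window reads 5′ to 3′ on the gene's strand.
Fosb, chr7:19309996-19310295, minus strand: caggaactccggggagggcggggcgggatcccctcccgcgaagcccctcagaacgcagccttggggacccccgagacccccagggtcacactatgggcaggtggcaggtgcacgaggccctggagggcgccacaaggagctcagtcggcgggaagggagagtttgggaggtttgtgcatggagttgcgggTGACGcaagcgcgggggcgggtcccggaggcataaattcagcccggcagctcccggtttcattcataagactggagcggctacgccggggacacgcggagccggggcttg
Egr2, chr10:67537619-67537918, plus strand: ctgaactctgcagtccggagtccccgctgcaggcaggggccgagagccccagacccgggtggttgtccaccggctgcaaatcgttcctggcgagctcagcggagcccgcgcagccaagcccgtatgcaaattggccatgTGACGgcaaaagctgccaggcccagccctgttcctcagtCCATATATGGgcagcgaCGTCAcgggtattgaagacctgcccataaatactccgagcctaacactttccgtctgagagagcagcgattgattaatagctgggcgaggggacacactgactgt
Nr4a1, chr15:101266596-101266895, plus strand: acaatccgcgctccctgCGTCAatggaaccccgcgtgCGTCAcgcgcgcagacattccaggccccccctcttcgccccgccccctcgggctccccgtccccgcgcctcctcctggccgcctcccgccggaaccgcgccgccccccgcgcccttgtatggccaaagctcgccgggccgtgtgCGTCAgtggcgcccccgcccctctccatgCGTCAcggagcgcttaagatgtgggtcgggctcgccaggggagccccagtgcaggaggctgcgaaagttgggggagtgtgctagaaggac
Fos, chr12:85473640-85473939, plus strand: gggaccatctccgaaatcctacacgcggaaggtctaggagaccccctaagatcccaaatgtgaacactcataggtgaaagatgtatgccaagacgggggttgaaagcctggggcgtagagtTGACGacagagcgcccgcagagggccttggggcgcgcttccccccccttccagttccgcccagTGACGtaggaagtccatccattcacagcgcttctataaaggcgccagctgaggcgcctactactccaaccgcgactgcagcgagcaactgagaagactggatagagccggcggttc
Counted in bases from the start site, with negative numbers before it, the Fosb core begins at -60. The Egr2 CArG box begins at -72, between cores at -111 and -55. The Fos cores begin at -129 and -66, and those of Nr4a1 at -233, -213, -69 and -40. A match is a run of letters and not evidence of binding, and the windows do not reach more distant sites.

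Every listed member was higher under the compound than in vehicle, in all 3 comparisons. Under HLM006474 7 of 10 members were higher and none lower, where the authors' deposited table lists 1.42% of the 15169 genes tested as higher. Under Ro5-3335 7 of 10 were higher and none lower, against 0.605% of 13561 genes tested. Under SB431542 6 of 10 were higher and none lower, against 2.29% of 15169 genes tested. These shares are given for scale only, since the members were picked with these comparisons in view, and the 3 comparisons share the 4 vehicle samples. Among the listed members the median log2 fold change was 1.68 under HLM006474, 1.10 under Ro5-3335 and 1.12 under SB431542. The median over all genes of each table was -0.74, -0.71 and -0.61, below 0 because each table holds more lower than higher genes. By fold among the higher genes alone, members ranked from 3 (Fosb) to 156 (Nr4a3) of 216 under HLM006474. The ranks ran from 3 (Fosb) to 60 (Egr1) of 82 under Ro5-3335, and from 66 (Fosb) to 233 (Arc) of 347 under SB431542. The member nearest to the fold limit was Egr1 under Ro5-3335, at 0.62, and the one nearest to the p limit was Nr4a2 under Ro5-3335, at an adjusted p of 0.0148 in the authors' deposited tables (DESeq2, Wald test). Members outside the limits have no value in the tables, and a gene can also be missing because it was given no p.

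**Figure D1:**
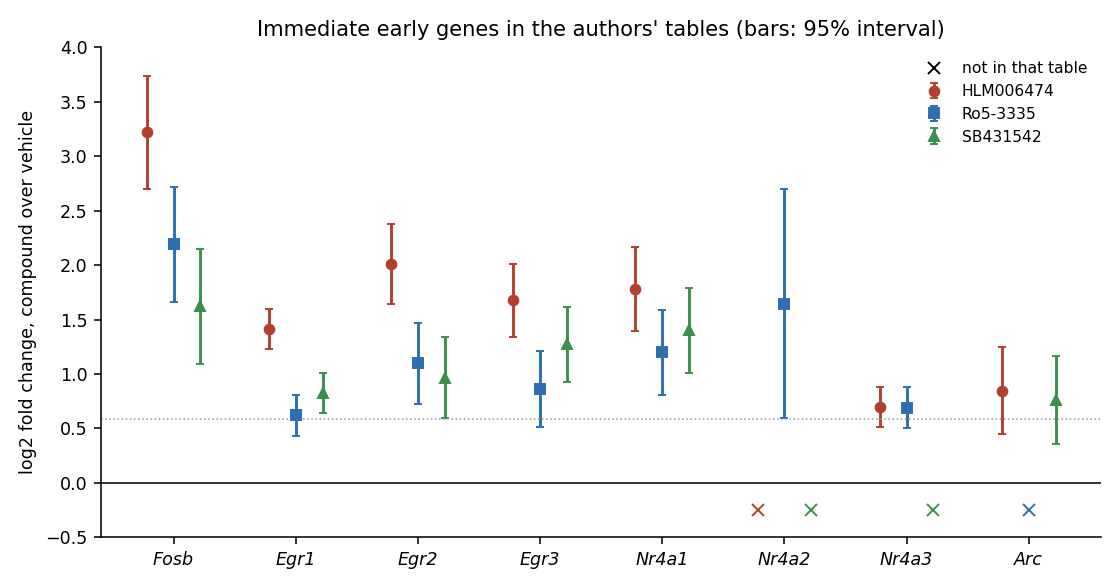
Log2 fold change of each compound over vehicle for the 8 listed members, from the authors' deposited tables; points are HLM006474, Ro5-3335 and SB431542 from left to right, bars are 95% intervals, crosses mark a member outside that table and the dotted line is a fold change of 1.5. Fosb stands highest under HLM006474, at 3.22, and the Nr4a2 interval is the widest.

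Group levels can be estimated for the 5 members in all 3 tables, because the mean over all 13 samples and the 3 fold changes fix the 4 group means. Their errors follow from the dispersion implied by the deposited standard errors. The same step predicted the error in 1 table from that in another to within a ratio of 0.969 to 1.02 for all 57 genes in the 3 tables. These levels are estimates of normalised counts and not measured replicate values.

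Fosb, whose protein pairs with JUN proteins to form AP-1, had the highest fold change of the members under each compound. Its estimated level was 439 ± 56.2 under HLM006474 (SE, n = 3), 215 ± 28.2 under Ro5-3335 (SE, n = 3) and 145 ± 19.4 under SB431542 (SE, n = 3), against 47.1 ± 6.15 normalised counts in vehicle (SE, n = 4). The log2 fold changes in the authors' deposited tables were 3.22 ± 0.26, 2.19 ± 0.27 and 1.62 ± 0.27 for HLM006474, Ro5-3335 and SB431542. The 3 compound levels stood well above vehicle, and that of HLM006474 stood above the other two. By fold, Fosb ranked 3 of the 216 higher genes of the HLM006474 table, 3 of 82 in the Ro5-3335 table and 66 of 347 in the SB431542 table. Its paralog Fos, the founding AP-1 member, was in none of the tables, and its level is unknown here.

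The 3 EGR genes, whose zinc finger proteins bind a shared GC-rich site, were higher under all 3 compounds. Egr1, the most widely used marker of the class, stood at an estimated 1882 ± 90.9 under HLM006474 (SE, n = 3), 1087 ± 53.9 under Ro5-3335 (SE, n = 3) and 1251 ± 61.6 under SB431542 (SE, n = 3), against 706 ± 31.3 normalised counts in vehicle (SE, n = 4). Its log2 fold changes in the authors' deposited tables were 1.41 ± 0.095 under HLM006474, 0.62 ± 0.096 under Ro5-3335 and 0.82 ± 0.095 under SB431542. Egr1 was the steadiest of the 5 members, with an implied coefficient of variation between replicates of 8.04%. Egr2, known for its need in Schwann cell myelination, stood at 545 ± 51.3 under HLM006474 (SE, n = 3), 289 ± 28.0 under Ro5-3335 (SE, n = 3) and 263 ± 25.7 under SB431542 (SE, n = 3), against 135 ± 12.1 normalised counts in vehicle (SE, n = 4). Egr2 had log2 fold changes of 2.01 ± 0.19, 1.10 ± 0.19 and 0.97 ± 0.19 for HLM006474, Ro5-3335 and SB431542 in the authors' deposited tables. For Egr2 the Ro5-3335 and SB431542 levels lay within their errors of each other. Egr3, which is needed for muscle spindle development, stood at 305 ± 25.7 under HLM006474 (SE, n = 3), 174 ± 15.5 under Ro5-3335 (SE, n = 3) and 231 ± 19.9 under SB431542 (SE, n = 3), against 95.6 ± 8.07 normalised counts in vehicle (SE, n = 4). Egr3 had log2 fold changes of 1.68 ± 0.17 under HLM006474, 0.86 ± 0.18 under Ro5-3335 and 1.27 ± 0.17 under SB431542 in the authors' deposited tables. The EGR genes thus shared HLM006474 as their highest group, while Egr1 and Egr3 had Ro5-3335 and Egr2 had SB431542 as the lowest compound group.

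**Figure D2:**
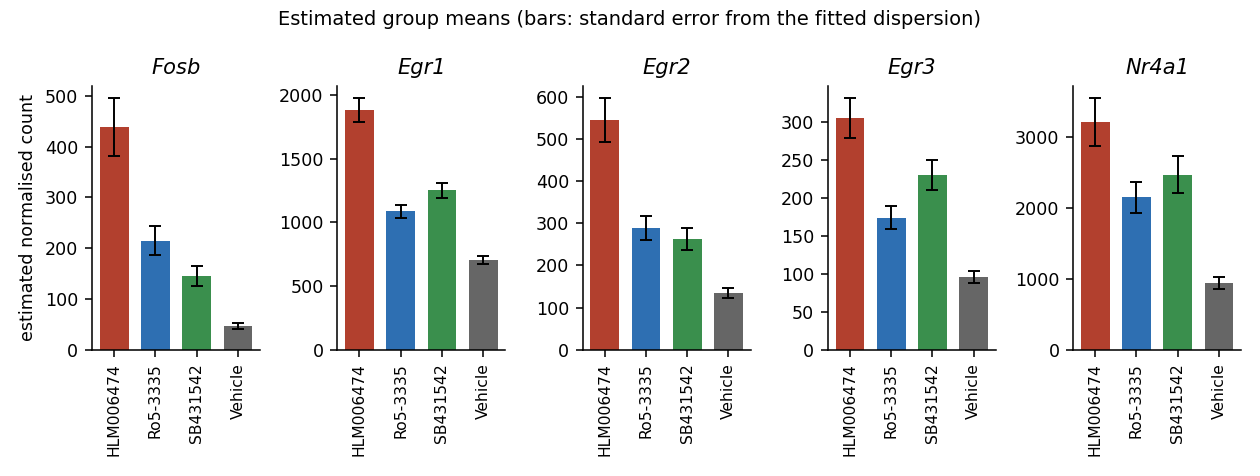
Estimated group means of the 5 members in all 3 tables, in normalised counts on linear axes from 0, for HLM006474, Ro5-3335, SB431542 and vehicle; bars are standard errors from the fitted dispersion. Vehicle is the lowest and HLM006474 the highest group for every gene, with Fosb at 439 and 47.1.

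The NR4A genes encode orphan nuclear receptors that bind DNA without a known natural hormone. Nr4a1, also known as Nur77, was higher under all 3 compounds. Its estimated level was 3218 ± 332 under HLM006474 (SE, n = 3), 2153 ± 223 under Ro5-3335 (SE, n = 3) and 2476 ± 256 under SB431542 (SE, n = 3), against 937 ± 84.8 normalised counts in vehicle (SE, n = 4). Nr4a1 had log2 fold changes of 1.78 ± 0.20, 1.20 ± 0.20 and 1.40 ± 0.20 for HLM006474, Ro5-3335 and SB431542 in the authors' deposited tables. Nr4a3, or Nor1, was listed under HLM006474 at 0.70 ± 0.095 and under Ro5-3335 at 0.69 ± 0.095 on the log2 scale in the authors' deposited tables. Nr4a3 was not in the SB431542 table, whose limits leave room for a change of up to 0.58 in either direction, so a difference between SB431542 and the other two is not shown for it.

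Nr4a2, or Nurr1, a regulator of dopamine neuron development, was listed under Ro5-3335 alone, at 1.64 ± 0.54 in the authors' deposited table. Its standard error was higher than that of all 98 genes of the same table with a mean count within 1.5 times its own, of which the highest was 0.48 and the median 0.20. With its fold changes outside the tables taken as 0, the implied coefficient of variation was 48.1%, against 8.04% to 21.7% for the 5 members in all tables. With an error of that size, the limits of the other tables would hide an Nr4a2 change of up to 1.34 under HLM006474 and 1.38 under SB431542 on the log2 scale. The listing of Nr4a2 under Ro5-3335 alone is therefore no sign that the compounds differ for this gene, and whether 1 library sets its value was not tested.

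Arc was listed under HLM006474 at 0.85 ± 0.20 and under SB431542 at 0.76 ± 0.20 on the log2 scale in the authors' deposited tables, at a mean count of 102. Arc was not in the Ro5-3335 table, whose limits leave room for a change of up to 0.58 in either direction. Ier2, which encodes a small nuclear regulatory protein, was in no table.

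**Figure D3:**
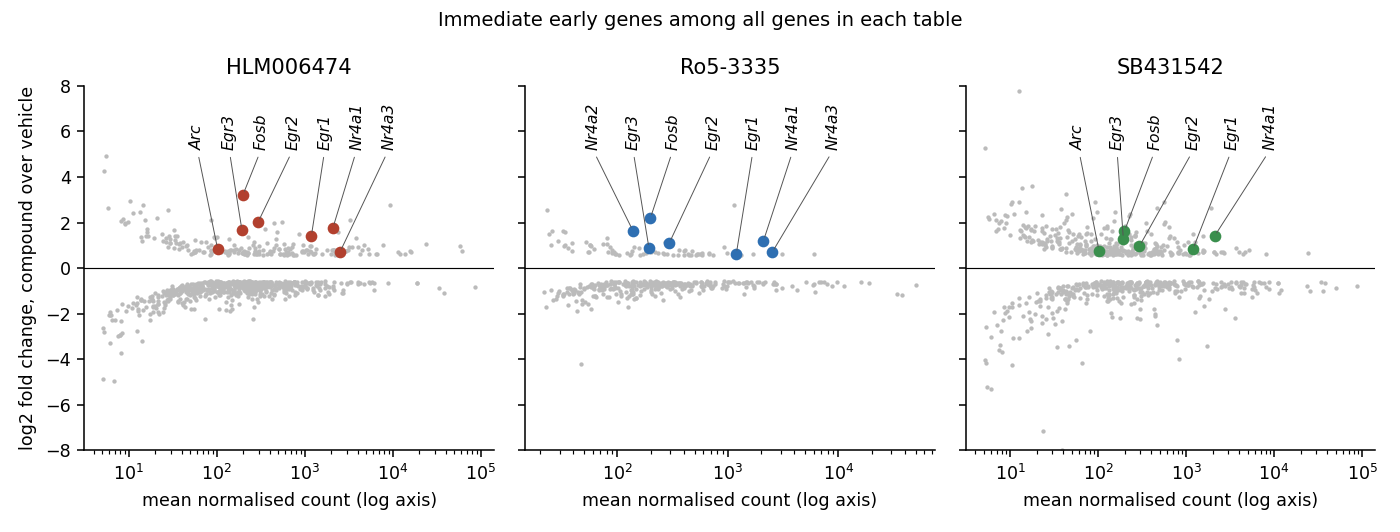
All genes of each table (grey) by mean normalised count on a log axis and log2 fold change over vehicle, with the listed members named; genes beyond 8 on the log2 scale are not drawn. The members lie on the higher side in all 3 panels, with Fosb near the top at 3.22 under HLM006474.

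The contrast between 2 compounds is not in the tables and was tested for the members present in both, 17 pairs of member and compounds in all. Each difference of log2 fold changes was set against its error by a z test, 2-sided, with p adjusted over every gene in both tables. Only genes past the limits of both tables could enter, and the members were picked with these fold changes known. The adjusted p values below therefore describe the size of a difference against its error and are not independent evidence about the members. All 6 members in both the HLM006474 and the Ro5-3335 tables had the higher value under HLM006474, and 3 passed, where 9.48% of 211 genes did. How many of the 211 genes had the higher value under HLM006474 was not computed. The members also share their HLM006474 and vehicle samples, so agreeing directions are not separate observations. Egr1 differed by 0.79 ± 0.13 (higher under HLM006474, adjusted p = 8.98e-07, z test on DESeq2 estimates), Egr2 by 0.92 ± 0.27 (adjusted p = 0.0125, same test) and Egr3 by 0.81 ± 0.25 (adjusted p = 0.0152, same test). Fosb differed by 1.03 ± 0.38, which did not pass (adjusted p = 0.0621, z test on DESeq2 estimates), and neither did Nr4a1 at 0.58 ± 0.28. This test counts the vehicle libraries in both errors and is too strict where groups vary alike. With the vehicle part taken out of the error, Fosb passed at an adjusted p of 0.00113 and Nr4a1 at 0.0396 (z test on DESeq2 estimates), so that 5 of 6 did. With that smaller error 34 of the 211 genes passed. Nr4a3 gave a difference of 0.0072 with a 95% interval of -0.26 to 0.27.

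Against SB431542, HLM006474 again gave the higher value for all 6 members in both tables, and 3 passed, where 32.9% of 161 genes did. The share of the 161 genes with the higher value under HLM006474 was likewise not computed. Fosb differed by 1.60 ± 0.38 (adjusted p = 0.000117), Egr2 by 1.05 ± 0.27 (adjusted p = 0.000398) and Egr1 by 0.59 ± 0.13 (adjusted p = 6.92e-05), all by the z test on DESeq2 estimates. Egr3, at 0.40 ± 0.24, passed only with the vehicle part taken out (adjusted p = 0.0475, z test on DESeq2 estimates). With that smaller error 4 of the 6 members and 70 of the 161 genes passed. Nr4a1 differed by 0.38, with a 95% interval of -0.17 to 0.93, and Arc by 0.085, with an interval of -0.48 to 0.65. Neither passed.

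Between Ro5-3335 and SB431542 none of the 5 shared members passed, where 17.2% of 93 genes did. None passed with the vehicle part taken out, where 21 of the 93 genes did. Their differences ran from -0.41 for Egr3, with a 95% interval of -0.89 to 0.080, to 0.57 for Fosb, with an interval of -0.18 to 1.31, both as Ro5-3335 minus SB431542. At an unadjusted p under 0.05 none of the 5 passed with the summed errors, and Fosb, Egr3 and Egr1 passed with the vehicle part taken out. How many of the 93 genes passed at that looser threshold was not computed, so this count is no result about the members. With that smaller error the interval of Fosb was 0.037 to 1.10, that of Egr3 was -0.76 to -0.056 and that of Egr1 was -0.40 to -0.0056, and the adjusted p was 0.129 for Fosb, 0.0935 for Egr3 and 0.151 for Egr1 (z test on DESeq2 estimates). Fosb was thus the higher under Ro5-3335 and Egr3 and Egr1 under SB431542 in these estimates, with no difference past the adjusted threshold, which does not show that the 2 compounds acted alike. By the summed errors, Egr1 and Egr2 were higher under HLM006474 than under both other compounds.

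**Figure D4:**
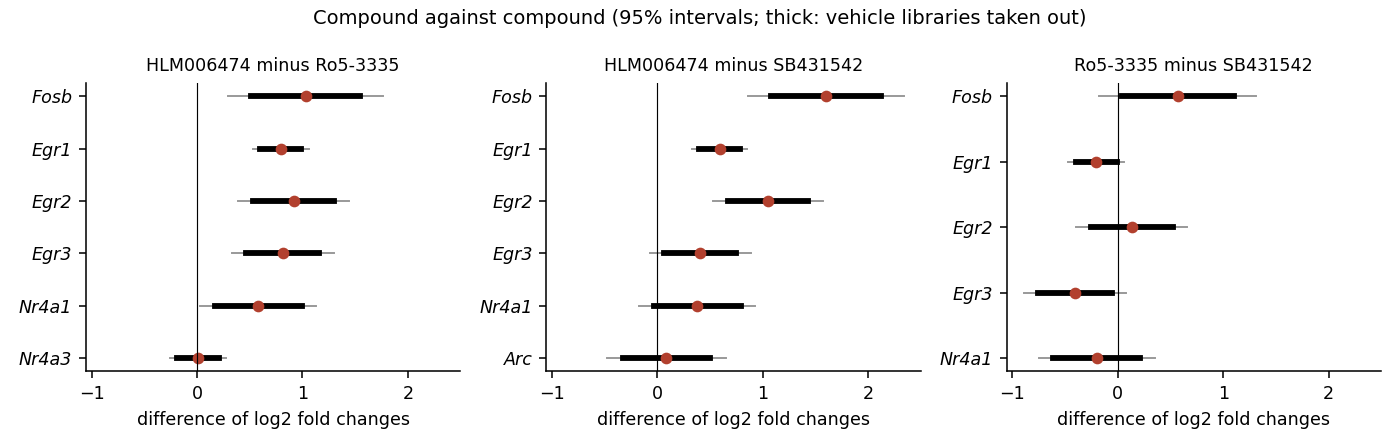
Difference of log2 fold changes, first-named compound minus second, for the members in both tables; points are the differences, thin lines 95% intervals by the summed errors and thick lines those with the vehicle libraries taken out. All points of both HLM006474 panels lie above 0, and those of the Ro5-3335 minus SB431542 panel lie on both sides. The directions over all genes in both tables were not counted.

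A wider list of 75 rapid-response genes was laid out by role, without the members. It held AP-1 partners, other rapid transcription factors, MAP kinase feedback genes, turnover and stress feedback genes, and secreted or enzymatic effectors. Of the 75, 17 were in at least 1 table and Arrdc3 alone was in all 3. Under HLM006474 6 were higher and 1 lower, where the table lists 1.42% of genes tested as higher and 4.22% as lower. Under Ro5-3335 2 were higher and 1 lower, against 0.605% higher and 2.32% lower. Under SB431542 7 were higher and 4 lower, against 2.29% higher and 2.64% lower.

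Among AP-1 partners, Fosl1, which encodes the FOS-related protein FRA1, was higher under HLM006474 at 1.37 ± 0.30 and under SB431542 at 1.297 ± 0.30 in the authors' deposited tables. The stress-induced factor Atf3 was higher under HLM006474 at 1.03 ± 0.091 and under SB431542 at 1.02 ± 0.091 in the authors' deposited tables. Batf, an AP-1 factor of immune cells, was higher under SB431542 at 1.84 ± 0.54 in the authors' deposited table, at a mean count of 15.8. Jun and Junb were in none of the tables. None of the 9 AP-1 partners was in the Ro5-3335 table. The Ro5-3335 table lists 0.605% of genes tested as higher and 2.32% as lower, so this absence is no result about the compound.

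Of the 18 other rapid transcription factors, HLM006474 listed Egr4, the remaining EGR family gene, at 1.73 ± 0.62, Klf10, a zinc finger gene induced by TGF-beta, at 0.84 ± 0.078, and Cebpd at -0.61 ± 0.065, in the authors' deposited table. Egr4 rests on few reads, with a mean count of 16.1. SB431542 listed Myc, the growth regulator, at 0.61 ± 0.074 in the authors' deposited table. Of the 16 MAP kinase and growth factor feedback genes, Dusp4 was higher under SB431542 at 0.61 ± 0.12 in the authors' deposited table, and no other was listed under any compound. Each table lists at most 4.22% of genes tested in a given direction, so so few listed genes are no result about this role. The tables give no p for genes outside their limits, so a count at a looser threshold cannot be had.

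Of the 18 turnover and stress feedback genes, Arrdc3, an arrestin-domain gene, was higher under HLM006474 at 0.78 ± 0.081, under Ro5-3335 at 1.33 ± 0.081 and under SB431542 at 0.72 ± 0.081 in the authors' deposited tables. Ro5-3335 also listed Gadd45a, a growth arrest gene, at 0.62 ± 0.083 and Tnfaip3, a brake on NF-kB, at -0.78 ± 0.23 in the authors' deposited table. SB431542 listed Ppp1r15a, a phosphatase subunit of the stress response, at 0.61 ± 0.11 and the kinase gene Plk3 at -0.73 ± 0.16 in the authors' deposited table. Of the 14 effectors, Ptgs2, the inducible cyclooxygenase, was higher under HLM006474 at 0.79 ± 0.17 in the authors' deposited table. Under SB431542 the TGF-beta target gene Ccn2 was lower at -1.28 ± 0.059, as was Vgf, which encodes a secreted neuropeptide precursor, at -0.61 ± 0.11, in the authors' deposited table.

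**Figure D5:**
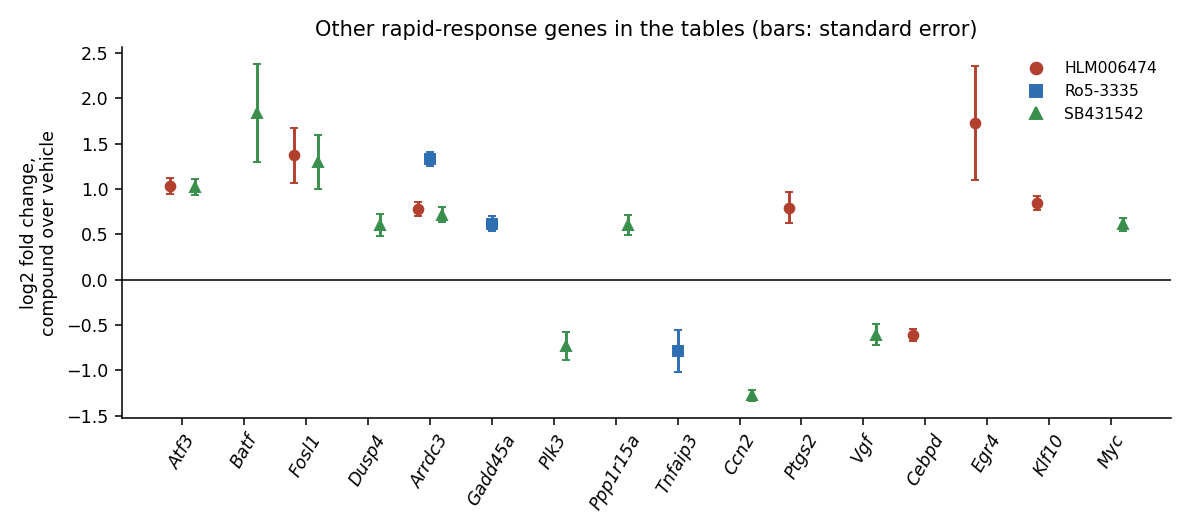
Log2 fold changes over vehicle of listed genes of the wider rapid-response list, from the authors' deposited tables; bars are standard errors. Arrdc3 has a point for each compound, and the lowest point drawn is Ccn2 under SB431542, at -1.28.

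SRF acts with ternary complex factors on immediate early genes and with MRTF on actin and muscle-type genes. Of 12 MRTF-type SRF targets, 5 were lower and none higher under HLM006474, 6 were lower and none higher under Ro5-3335, and 3 were lower and Filip1l higher under SB431542. The tables list 4.22% of genes tested as lower under HLM006474, 2.32% under Ro5-3335 and 2.64% under SB431542. Smooth muscle actin, Acta2, stood at -1.09 ± 0.078 under HLM006474, -1.19 ± 0.078 under Ro5-3335 and -0.64 ± 0.078 under SB431542 in the authors' deposited tables. Fosb and the EGR genes were higher in the same comparisons in which Acta2, Tagln and Actg2 were lower. A link between these changes through SRF was not tested, and targets outside the tables have no value.

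The genes most like each member were taken as those in the same set of tables with the smallest Euclidean distance between their log2 fold changes, which describes likeness over 3 comparisons at most. Only genes past the limits of the same tables could be neighbours, the other members included. The members were picked with these fold changes known, so their likeness to each other is a description and no result about the family. For Egr3 the nearest of 56 genes was Nr4a1, at a distance of 0.37, and Nr4a1 likewise had Egr3 as its nearest. Egr2 was nearest to Nr4a1, at 0.51, and then to Egr3, also at 0.51. For Egr1 the nearest was Ccno, at 0.42, and then Ypel1, at 0.48. Fosb stood apart, with Egr2 the nearest at 1.75. Nr4a3 lay nearest to Kdsr among 153 genes, at 0.016, and Arc to Lipa among 103 genes, at 0.099.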

How the data were processed

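RNA-seq of 13 astrocyte samples was deposited as 3 lists of genes, 1 for each compound set against vehicle. CASAVA 1.8, STAR 2.7, DESeq2 1.30.1 and the build GRCm38 are named in the submitters' processing notes; how reads were counted, with which annotation and strand setting, is not given in the sources used here. Per the file headers, the authors give a mean normalised count (a signal averaged over all samples), a log2 fold change, a standard error for it (also log2), a Wald score, a p-value and an adjusted p-value. The sign was read as compound over vehicle, which the headers do not state; the TGF-beta target Ccn2 stands at -1.28 in the SB431542 table. The labels do not say whether samples of a group are separate cultures, so the p-values cover the spread among the samples alone, and that spread may be technical.

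The number of genes tested was the smallest that made the ranks implied by p and adjusted p whole within 0.02 for most genes with p of at least 1e-04. It did so for 81.1% of genes for HLM006474, 83.6% for Ro5-3335 and 80.5% for SB431542. Group means were solved from the mean count and the 3 fold changes, and the dispersion from the negative binomial variance behind the standard errors, taking library size factors as equal. Differences between compounds used a 2-sided z test with Benjamini-Hochberg adjustment over all genes in both tables. The solving of levels and dispersion and the z test were run on simulated counts. The simulated standard errors came from the same variance formula, so the recovery of level and dispersion was fixed by construction. The estimate of the number of genes tested, tables cut at limits and unequal library size factors were not simulated. The limit for a member outside a table is the larger of that table's smallest fold change and the change its p limit allows at the member's own standard error. All 10 members are named, as is every listed gene of the wider list but 1, which is counted and not reported here, and for likeness the 3 nearest genes were computed. Members and lists were chosen with earlier results of these data known. Python 3.11.15, scipy 1.17.1 and statsmodels 0.14.6 were used.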

Additional observations from a re-analysis of the deposited data

How the results depend on the processing

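At an absolute log2 fold change of at least 1, the members listed numbered 5 under HLM006474, 4 under Ro5-3335 and 3 under SB431542. The wider rapid-response genes listed numbered 3 under HLM006474, 1 under Ro5-3335 and 5 under SB431542. The share of all genes tested at this limit was not computed, and the shares given above belong to the authors' limits. Of the members compared between HLM006474 and Ro5-3335, 5 passed with the vehicle libraries taken out of the error and 1 with Holm adjustment, where 3 passed by the planned test. Of all 211 genes compared, 34 passed with that smaller error, 7 with Holm adjustment and 20 by the planned test. The smaller error and the stricter adjustment account for these counts by construction. With the vehicle part taken out, Fosb and Nr4a1 also passed against Ro5-3335, and Egr3 against SB431542. With Holm adjustment, Egr2 and Egr3 no longer passed against Ro5-3335 (adjusted p = 0.125 and 0.205, z test on DESeq2 estimates). In all, 20 alternatives for counts stayed within 1.5 times the value reported. Among them were the HLM006474 members at a log2 fold change of at least 1, adjusted p under 0.01 and a mean count of at least 100. These alternatives change an error, an adjustment or a limit and leave each fold change as it is, so they do not test a direction. Estimated vehicle levels of Nr4a2, Nr4a3 and Arc moved by less than the fitted SD of a single sample when fold changes outside the tables were set to their limits. The SE of the vehicle mean (n = 4) is a narrower measure. Nr4a2 ran from 62.4 to 114 around 92.6 (SE 22.8), and Nr4a3 from 1797 to 2081 around 1957 (SE 85.3). Nr4a2 at the upper limit and Nr4a3 at either limit thus moved by more than the SE, and Arc did not. No paired analysis was possible because the tables used hold comparisons and no values of single samples, and for the same reason replicates could not be left out in turn. Depth is unknown; genes with low mean counts have wide errors, and a table's limits hide smaller changes.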
